A study of Mus musculus with 31 samples.

Results

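The 37 genes described here encode secreted cytokines and chemokines, acute-phase proteins and enzymes of prostaglandin synthesis. They were chosen by symbol from a fixed list. All 37 had a row among the 24421 gene rows of the count table. Of these, 35 passed the filter on low counts and were tested, and Csf2 and Ccl20 did not, with at most 11 and 9 reads in any library. By role there were 3 cytokines of the IL-6 family, 4 genes of the IL-1 family, 4 colony-stimulating factors, Tnf, Tnfsf15 and Tslp, 9 CC chemokines, 8 CXC and CX3C chemokines, 2 acute-phase genes and 4 prostaglandin enzymes. RNA was sequenced from mouse cardiac fibroblasts, the connective-tissue cells of the heart, taken from C57Bl/6 animals between 8 and 12 weeks of age and plated straight after isolation. Every group shared this source, and no genetic change, agent or treatment was named for any of them. Cells of the groups 2D and 3D were held in a flat (2D) or a 3D arrangement, with no stated time. Labels such as 3D-2D, 3D-2D-3D and 3D-2D-2D were read as arrangements that followed each other. Groups 2D-5days and 3D-5days had a stated time of 5 days, and 3 further groups were flat cultures on substrates of stated stiffness (2D-64kPa, 2D-8kPa and 2D-0.5kPa). Each group had 3 libraries except 3D-2D, which had 2. The form of the 3D culture, the substrate material, the times of the sequential cultures, the number of passages and how many mice went into a library are facts not given in the sources used here.

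Fibroblasts release cytokines and chemokines that call in and sustain leukocytes. Many of these genes are switched on when receptors for IL-1, TNF or microbial products activate the transcription factors NF-kB and AP-1. Chemokines attract cells through receptors on leukocytes, colony-stimulating factors keep myeloid cells alive, and cyclooxygenases turn arachidonic acid into the precursor that terminal synthases convert to prostaglandin E or to prostacyclin. In the injured heart such signals are known to steer the entry of neutrophils and monocytes and the survival of resident macrophages.

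Gene counts came to between 8509987 and 29909400 per library. The summed level of 11 fibroblast markers was 17524 to 75925 CPM (the usual depth-scaled count, with library totals corrected for composition) in every library. Markers of other cells were also present. The sum over 23 macrophage markers ran from 277 to 14263 CPM with none of the 23 at 0 in any library, that over 11 endothelial markers from 325 to 764 CPM, and that over lymphocyte markers from 0.335 to 1.23 CPM. Eng alone gave most of the endothelial sum, at 217 to 723 CPM, while Pecam1 had at most 14.6 CPM and Cldn5 at most 3.28 CPM. The sum over 7 cardiomyocyte markers was 206 CPM in 3D library 3, against 65.8 and 71.5 CPM in 3D libraries 1 and 2. In 3D-2D-3D it was 165 CPM in library 3, against 33.6 and 33.0 CPM in libraries 1 and 2. In 3D, gene-wise log2 CPM differences had an SD of 0.280 for libraries 1 and 2, but of 1.06 and 0.966 when library 3 was set against them. Xist reads with at most 7 reads of Y-linked genes were found in libraries 1 and 2 of 4 groups (3D-2D-3D, 3D-2D, 2D and 3D), all substrate libraries held Y-linked reads with 1 to 7 Xist reads, and the remaining libraries held both kinds. Values that rest on library 3 are therefore given with and without it. No label says that replicate libraries are separate cultures, so p-values measure only how these libraries vary, and that variation may be technical.

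**Figure D1:**
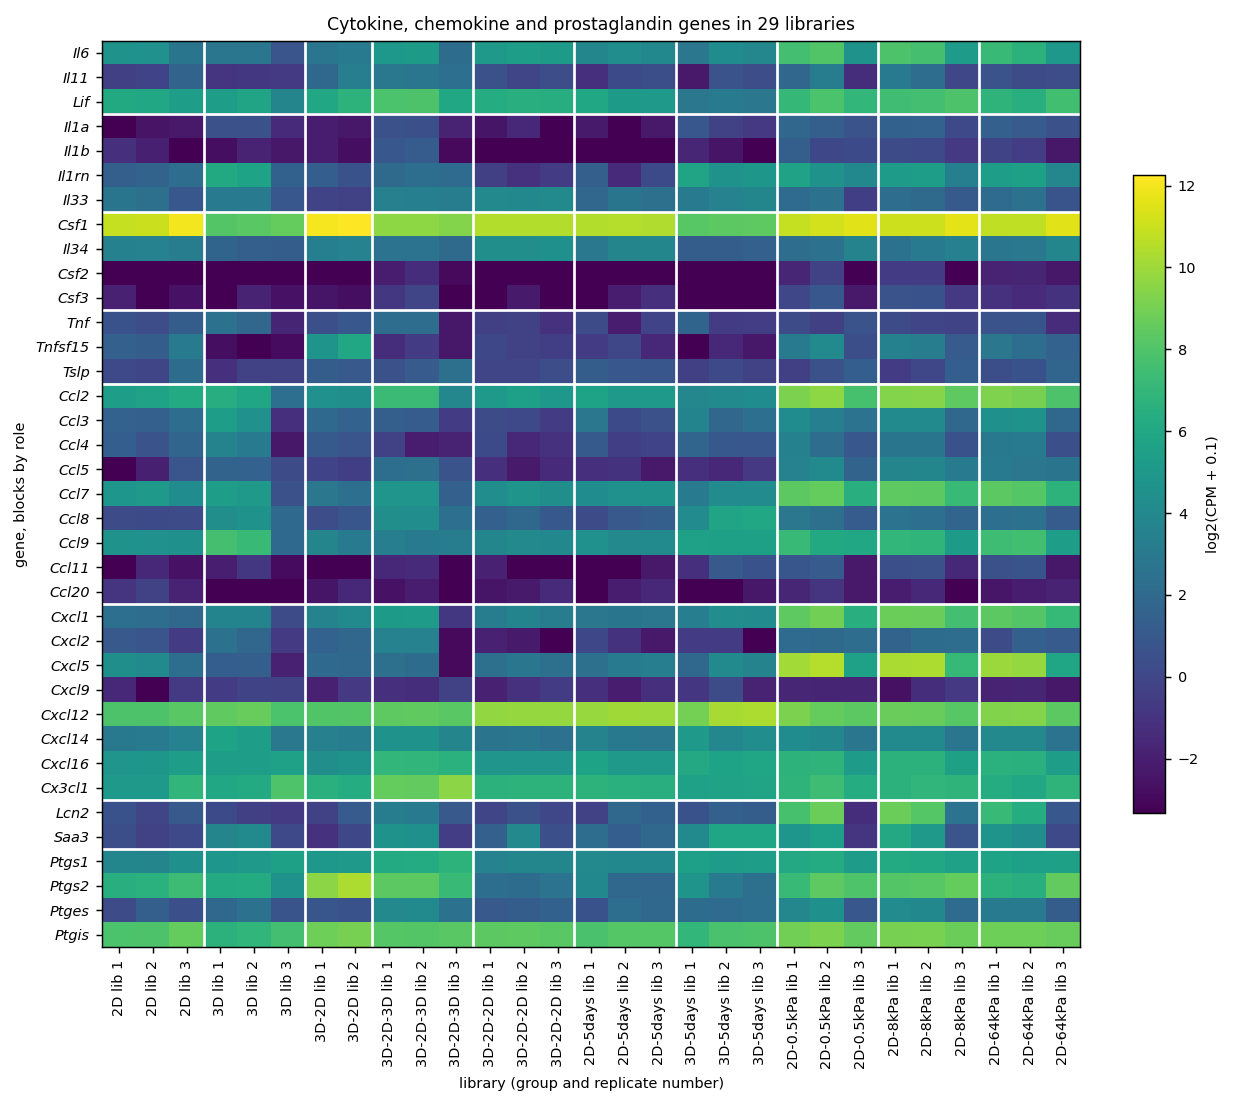
Level of each of the 37 genes in each of the 29 libraries, as log2(CPM + 0.1) on the colour scale. Rows are genes in blocks by role and columns are libraries in blocks by group. Csf1 is bright in every library and darkest in 3D and 3D-5days, while Il6, Ccl2, Ccl7, Cxcl1, Cxcl5 and Lcn2 are brightest in libraries 1 and 2 of the 3 substrates.

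Abundance and range differed widely across groups. Csf1, which encodes the main growth factor of macrophages, had between 268 and 4896 CPM in the 29 libraries. Cxcl12, the ligand of the receptor Cxcr4, had 226 to 1270 CPM, and Ptgis, prostacyclin synthase, had 101 to 588 CPM. At the other end, Csf2 had no reads in 19 libraries, Csf3 in 9, and Il1b, Ccl11 and Ccl20 in 8 each. The absence of Csf2 reads from the 2D libraries allows up to 3 reads over that group, or 0.0569 CPM, in counting error alone. Group means of Cxcl5 ran from 1.70 CPM in 3D to 908 CPM on 8 kPa, those of Lcn2 from 0.735 CPM in 3D to 243 CPM on 8 kPa, and those of Ptgs2 from 5.10 CPM in 3D-2D-2D to 1030.1 CPM in 3D-2D.

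Promoter windows from RefSeq on GRCm38.p6, each reaching from 250 bases before to 50 bases after a start site, were found for 26 of the 37 genes, in 30 windows. The NF-kB consensus, searched on both strands, was present in 7 of the 30 windows (23.3%) and in 8.46% of all 32851 windows of 300 bases. The genes were Ccl9, Ccl20, Csf1, Cxcl1, Cxcl2, Il6 and Lif. The AP-1 motif TGANTCA, also searched on both strands, was in 7 of the 30 windows (23.3%) and in 7.81% of all windows, in Ccl9, Cxcl9, Il11, Il1a, Il1rn, Il6 and Lif. No NF-kB match overlapped an AP-1 match. The windows of Cxcl1 and Cxcl2, neutrophil attractants with the same matched letters, are shown with those of Il6 and Csf1. These genes were picked by hand along with Lcn2 and Ptges, whose windows held no NF-kB match. The matches of Ccl9, Ccl20 and Lif are not shown. Capitals mark the NF-kB match, which begins 71 bases before the start of Cxcl1, 97 before that of Cxcl2, 44 before that of Il6 and 154 before that of Csf1. In Cxcl1 and Cxcl2 the capitals cover 2 matches shifted by 1 base. The windows lie at chr5:90890995-90891294 (plus strand) for Cxcl1, chr5:90903649-90903948 (plus strand) for Cxcl2, chr5:30012864-30013163 (plus strand) for Il6 and chr3:107760420-107760719 (minus strand) for Csf1. A match is a description of these letters and not a measured binding site.
Cxcl1: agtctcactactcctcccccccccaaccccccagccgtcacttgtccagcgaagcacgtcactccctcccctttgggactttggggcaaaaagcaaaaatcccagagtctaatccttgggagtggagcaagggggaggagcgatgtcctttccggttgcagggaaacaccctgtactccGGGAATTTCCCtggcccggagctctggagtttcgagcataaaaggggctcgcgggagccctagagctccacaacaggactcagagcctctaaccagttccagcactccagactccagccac
Cxcl2: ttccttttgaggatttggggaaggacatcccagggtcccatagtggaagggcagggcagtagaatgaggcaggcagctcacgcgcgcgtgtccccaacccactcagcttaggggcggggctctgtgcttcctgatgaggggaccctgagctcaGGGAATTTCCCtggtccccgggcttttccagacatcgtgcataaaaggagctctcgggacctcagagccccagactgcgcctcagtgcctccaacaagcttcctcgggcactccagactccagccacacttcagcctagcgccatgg
Il6: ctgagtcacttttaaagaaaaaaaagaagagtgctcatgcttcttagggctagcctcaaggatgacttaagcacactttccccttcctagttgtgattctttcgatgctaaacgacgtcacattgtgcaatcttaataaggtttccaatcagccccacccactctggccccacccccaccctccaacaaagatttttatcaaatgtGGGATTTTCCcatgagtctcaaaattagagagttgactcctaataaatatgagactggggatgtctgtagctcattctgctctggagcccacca
Csf1: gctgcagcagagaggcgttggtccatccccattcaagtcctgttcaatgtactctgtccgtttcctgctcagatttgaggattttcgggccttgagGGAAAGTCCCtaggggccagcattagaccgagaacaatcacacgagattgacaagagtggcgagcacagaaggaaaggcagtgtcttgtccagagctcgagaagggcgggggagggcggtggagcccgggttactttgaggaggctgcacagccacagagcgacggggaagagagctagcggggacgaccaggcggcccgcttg

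Tests were made with edgeR's quasi-likelihood method on all 14036 genes that passed the filter, and a gene was called changed at a Benjamini-Hochberg adjusted p under 0.05. Between 3D and 2D, 13 of the 35 tested members changed (37.1%), 7 higher and 6 lower in 3D. Of all genes, 54% changed, 26.7% higher and 27.3% lower. Between 3D-2D and 3D, 8 members rose and 7 fell after the move to 2D (42.9%), against 56.5% of all genes, 28.8% higher and 27.7% lower. Against 3D-2D-2D, 14 members were higher and 3 lower in 3D-2D-3D. This was 40% and 8.57% of the members, beside 19.8% and 20.6% of all genes, or 40.4% in either direction. At 5 days, 5 members were higher and 3 lower in 3D (22.9%), beside 14.9% and 17.5% of all genes, or 32.4% in either direction. Between 3D-2D and 2D, 4 members were higher and 1 lower in 3D-2D (14.3%), beside 6.85% and 7.54% of all genes, or 14.4% in either direction. The share of members that changed was thus below that of all genes in 3D vs 2D, in 3D-2D vs 3D and at 5 days, near it in 3D-2D vs 2D, and above it among rises in 3D-2D-3D. In 3D-2D-3D, libraries 1 and 2 had 1 and 0 Y-linked reads and library 3 had 2620, while the 3D-2D-2D libraries had 663 to 960. For libraries 1 and 2, the arrangement and this difference in Y-linked reads cannot be told apart. The median log2 difference of the 35 members was 0.53 in 3D vs 2D, -0.59 in 3D-2D vs 3D, 1.59 in 3D-2D-3D vs 3D-2D-2D and 0.46 at 5 days, and that of all genes was 0.03, -0.02, -0.01 and 0.003.

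**Figure D2:**
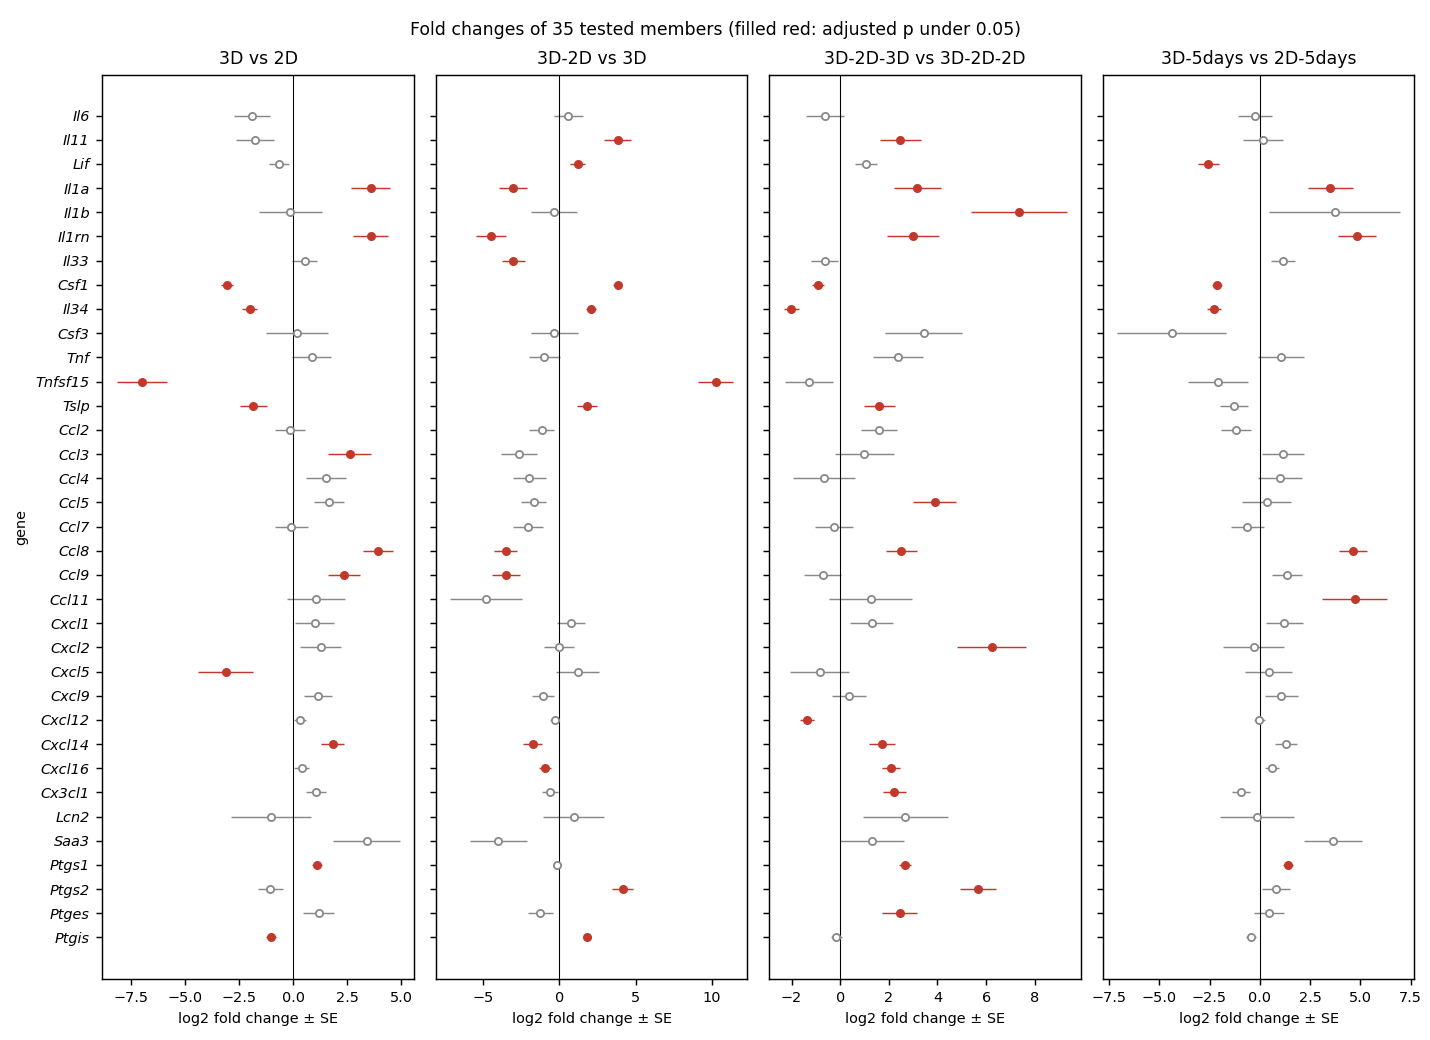
Log2 fold change of the 35 tested genes in 4 comparisons, each with its standard error as a bar; filled red points had an adjusted p under 0.05. Csf1 and Il34 lie left of 0 in 3D vs 2D, 3D-2D-3D vs 3D-2D-2D and 3D-5days vs 2D-5days, and right of 0 in 3D-2D vs 3D.

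The ligands of the macrophage receptor Csf1r, Csf1 and Il34, were lower in every 3D culture than in the 2D culture it was compared with. Csf1 (RefSeq, GRCm38.p6 chromosome 3, 107741048 to 107760469) had 1861, 2034 and 4044 CPM in the 2D libraries and 268, 304 and 387 CPM in the 3D libraries. The highest 3D library was thus far below the lowest 2D library, and the log2 difference was -3.05 ± 0.27 (edgeR adjusted p = 5.2e-09). In 3D-2D its levels were 4212 and 4896 CPM, above all 2D and 3D libraries, and the rise over 3D was 3.83 ± 0.29 (edgeR adjusted p = 6.01e-10). The difference between 3D-2D and 2D, 0.78 ± 0.27, did not pass (edgeR adjusted p = 0.0562), but it did without 2D replicate 3, at 1.23. Cells returned to 3D had 786, 781 and 656 CPM, and cells kept in 2D had 1403, 1426 and 1398 CPM. These groups did not overlap, and the difference was -0.93 ± 0.25 (edgeR adjusted p = 0.00467). At 5 days the levels were 297, 328 and 336 CPM in 3D against 1417, 1446 and 1376 CPM in 2D, a difference of -2.14 ± 0.26 (edgeR adjusted p = 1.07e-06).

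Il34 (chromosome 8, 110741829 to 110805949), the other ligand of Csf1r, was also lower in each 3D group than in its 2D counterpart, but its highest levels were in 3D-2D-2D and not in 3D-2D. It had 11.2, 11.7 and 9.56 CPM in 2D and 3.15, 2.58 and 2.29 CPM in 3D, a difference of -2.02 ± 0.33 (edgeR adjusted p = 2.91e-05). It was at 10.6 and 12.0 CPM in 3D-2D, up by 2.08 ± 0.36 from 3D (edgeR adjusted p = 4.02e-05). The 3D-2D-3D libraries had 5.97, 5.94 and 3.998 CPM against 21.1, 20.4 and 22.3 CPM in 3D-2D-2D (-2.004 ± 0.32), and the 5-day difference was -2.26 ± 0.36. Both genes were called in 3D vs 2D within libraries 1 and 2 (Csf1 -2.79, Il34 -2.02) and within library 3 (-3.37 and -2.04). The summed level of 8 mesothelial markers moved in the same direction as both ligands in these 4 comparisons. It was 4.26 to 15.1 CPM for the 3D libraries, against 26.2 to 28.1 CPM for 2D and 45.0 to 51.2 CPM for 3D-2D. After the return to 3D it was 9.54 to 23.3 CPM, and 77.9 to 84.4 CPM after continued 2D culture. The 5-day libraries had 0.398 to 1.78 CPM when grown in 3D, with Msln, Upk3b and Upk1b at 0, and 25.4 to 34.0 CPM when grown in 2D, with Krt8 and Krt18 at 0. Krt8 was also at 0 in 3D-2D and 3D-2D-2D. Upk3b alone gave 71.1, 65.1 and 68.7 CPM of the sum in the 3D-2D-2D libraries. Krt19 went the other way, at 5.28, 4.86 and 1.71 CPM in 3D-2D-3D and at most 0.273 CPM in 3D-2D-2D. So did Krt18, at 2.73, 1.68 and 2.58 CPM in 3D-2D-3D and at most 0.122 CPM in 3D-2D-2D. Of 7 markers tested, 1 was higher and 3 lower in 3D than in 2D, and 5 rose and 0 fell from 3D to 3D-2D. In 3D-2D-3D 2 were higher and 2 lower than in 3D-2D-2D, and at 5 days 0 were higher and 2 lower in 3D. The shares of all genes called were 54%, 56.5%, 40.4% and 32.4% in the same order. On the substrates the sum of the mesothelial markers was 3.48 to 11.2 CPM, with no library above the highest 3D library. Both ligands lay above all 3D libraries there, Csf1 at 1722 to 3169 CPM and Il34 at 4.69 CPM or more. The part of the mesothelial markers in the differences of Csf1 and Il34 was not tested. The myeloid factors Csf2 and Csf3 stayed near the detection limit. Csf2 had reads only in 3D-2D-3D and on the substrates, with at most 7 and 11 reads per library. Csf3, the growth factor of neutrophils, was tested and called in none of the comparisons, although without 3D-2D-3D replicate 3 it was called higher in 3D-2D-3D, at 4.04 on the log2 scale.

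**Figure D3:**
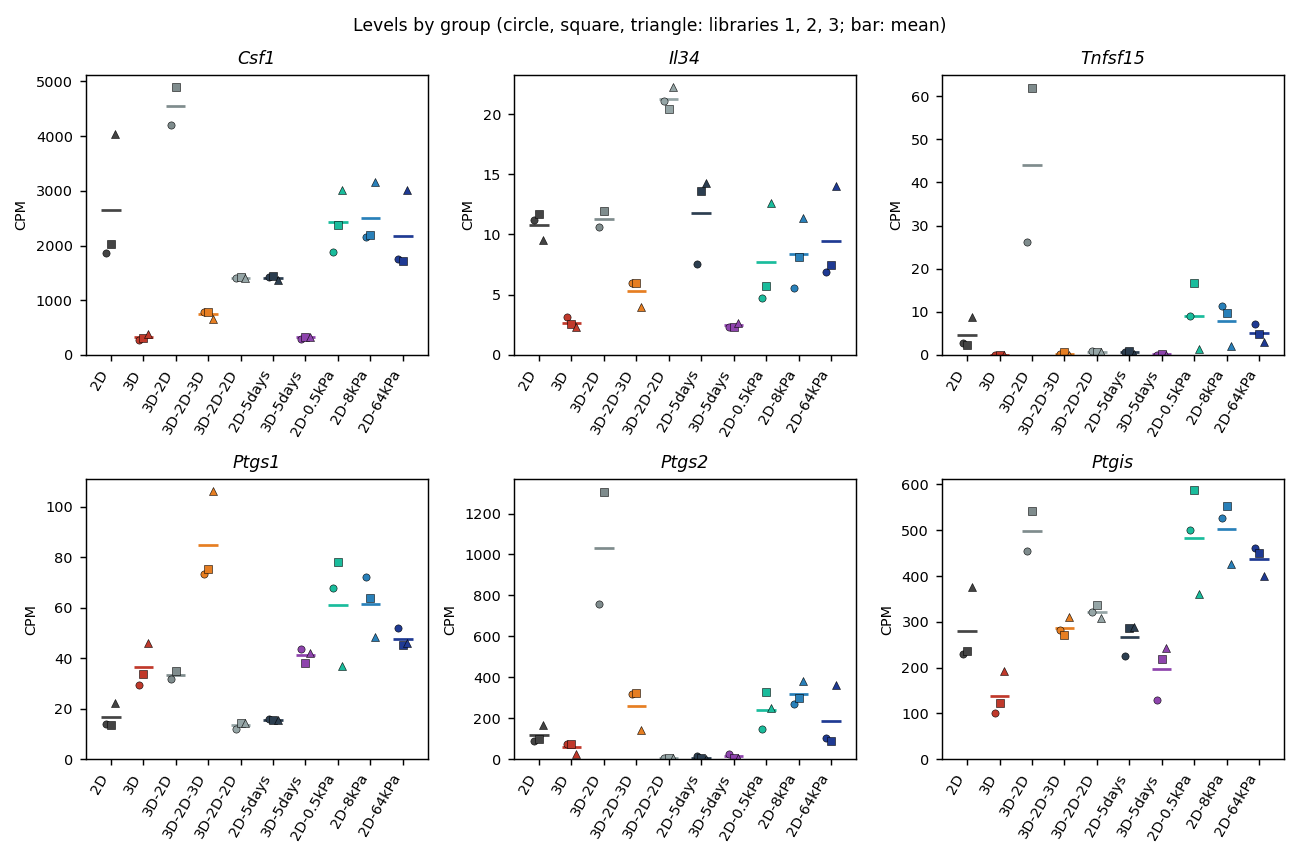
CPM of Csf1, Il34, Tnfsf15, Ptgs1, Ptgs2 and Ptgis in every library of the 10 groups, on linear axes; circles, squares and triangles are libraries 1, 2 and 3 and bars are group means. Csf1 and Ptgs2 are highest in 3D-2D, at means of 4554 and 1030.1 CPM, and Ptgs1 in 3D-2D-3D, at 85.0 CPM.

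The 4 prostaglandin enzymes did not move as a block. Ptgs1 (chromosome 2, 36216742 to 36258593), the constitutive cyclooxygenase, had 13.97, 13.7 and 22.2 CPM in 2D and 29.6, 33.7 and 46.1 CPM in 3D. The 3D libraries lay above all 2D libraries, by 1.12 ± 0.23 (edgeR adjusted p = 0.000274). It stayed at 31.9 and 34.9 CPM in 3D-2D, so that it did not differ detectably from 3D (-0.13 ± 0.25) and was 0.99 ± 0.25 above 2D (edgeR adjusted p = 0.0111). That call was lost without 2D replicate 1 (0.88), 2D replicate 2 (0.87) or 3D-2D replicate 2 (0.93). The widest gap was between 3D-2D-3D, at 73.2, 75.4 and 106 CPM, and 3D-2D-2D, at 12.1, 14.3 and 14.2 CPM. It came to 2.65 ± 0.24 (edgeR adjusted p = 1.78e-08). At 5 days the gene was 1.39 ± 0.24 higher in 3D, at 43.8, 38.1 and 42.0 CPM against 16.0, 15.7 and 15.5 CPM.

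Ptgs2 (chromosome 1, 150100031 to 150108234), the inducible cyclooxygenase, was highest in 3D-2D. Its levels were 91.1, 98.7 and 167 CPM in 2D, 72.6, 75.6 and 24.6 CPM in 3D, and 756 and 1304 CPM in 3D-2D. The rise over 3D was 4.16 ± 0.69 (edgeR adjusted p = 3.24e-05) and that over 2D 3.11 ± 0.67 (edgeR adjusted p = 0.00442), which fell to 2.66 and was not called without 3D-2D replicate 2. Between 3D and 2D the difference of -1.05 ± 0.60 did not pass. In 3D-2D-3D the gene had 317, 324 and 145 CPM, while the 3D-2D-2D libraries had 4.80, 4.41 and 6.09 CPM, a difference of 5.67 ± 0.75 (edgeR adjusted p = 3.5e-06). In both 5-day groups it was low, at 3.50 to 26.8 CPM. The 5-day difference of 0.82 ± 0.68 was not called, but 0.89 ± 0.18 was with the replicate number as a block (edgeR adjusted p = 0.00232).

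Of the terminal synthases, Ptgis was lower in 3D (101, 123 and 193 CPM) than in 2D (229, 236 and 376 CPM), at -1.01 ± 0.24 (edgeR adjusted p = 0.00107). In 3D-2D it was at 456 and 543 CPM, above every 2D and 3D library. The rise over 3D was 1.84 ± 0.26 and that over 2D 0.83 ± 0.26 (edgeR adjusted p = 0.034); the latter call ended without either 3D-2D library (0.94 without replicate 1, 0.70 without replicate 2), 2D replicate 1 (0.71) or 2D replicate 2 (0.72). In 3D-2D-3D, compared with 3D-2D-2D, it was not called (-0.16 ± 0.23). At 5 days its difference of -0.44 ± 0.24 was called with the replicate block alone (-0.44 ± 0.12, edgeR adjusted p = 0.0113). Ptges, the inducible prostaglandin E synthase, had 16.3, 16.7 and 5.84 CPM in 3D-2D-3D and 1.94, 2.33 and 2.82 CPM in 3D-2D-2D. It was 2.45 ± 0.72 higher (edgeR adjusted p = 0.00945), and it was called in no other comparison of the main fit.

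A list of 15 other prostaglandin genes (phospholipase, other synthases, transporters and receptors) had 14 tested. In 3D vs 2D 6 rose and 2 fell, in 3D-2D vs 3D 3 rose and 7 fell, in 3D-2D-3D vs 3D-2D-2D 5 rose and 1 fell, and at 5 days 7 rose and 1 fell. Of all genes, 54%, 56.5%, 40.4% and 32.4% were called in these comparisons. The list's median log2 differences were 0.53, -1.17, 0.22 and 1.08. Pla2g4a, the cytosolic phospholipase that releases arachidonic acid, had a mean of 127 CPM in 3D-2D-3D and 21.1 CPM in 3D-2D-2D (2.60 ± 0.23, edgeR adjusted p = 1.24e-08). Slco2a1, the uptake carrier that clears prostaglandins, fell in 3D from 148 to 40.9 CPM (-1.86 ± 0.43) and stood at 291 CPM in 3D-2D (2.82 ± 0.47 over 3D). Abcc4, an exporter of prostaglandins, was higher in each 3D group than in its 2D counterpart, by 1.11 ± 0.22, 1.42 ± 0.22 and 2.30 ± 0.23 at no stated time, in 3D-2D-3D and at 5 days. Ptger4, a prostaglandin E receptor, was 1.42 ± 0.21 higher in 3D-2D-3D than in 3D-2D-2D.

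Tnfsf15, a TNF-family cytokine that acts on lymphocytes and endothelial cells, had the widest swing between 3D and 3D-2D. It lies on chromosome 4, 63724600 to 63745059. The 2D libraries had 2.66, 2.29 and 8.74 CPM, the 3D libraries only 2 reads in all, and the 3D-2D libraries 26.1 and 61.9 CPM. Summed counts scaled to library size gave a ratio of 202 between 2D and 3D (95% counting interval 55.3 to 1672) and of 1472 between 3D-2D and 3D (407 to 12166). These intervals cover counting error only, since reads without molecular identifiers are not independent molecules. Both differences were called (edgeR adjusted p = 3.39e-05 and 2.67e-07). The gene was also 3.22 ± 0.73 higher in 3D-2D than in 2D, a call lost without 3D-2D replicate 2 (2.47). Called values moved by over 1.5-fold without 2D replicate 3, to -6.07 for 3D vs 2D and 4.15 for 3D-2D vs 2D, and to 9.47 for 3D-2D vs 3D without 3D-2D replicate 2. In both 5-day groups, 3D-2D-2D and 3D-2D-3D it stayed at or below 0.926 CPM. Tslp, an epithelial and stromal cytokine on chromosome 18, was at 0.998, 0.867 and 4.42 CPM in 2D and 0.355, 0.716 and 0.728 CPM in 3D. Its difference of -1.85 ± 0.63 rested on 2D library 3: without that replicate it was -0.61 and not called, and it was also lost without 3D replicate 1 (-1.59) and with the replicate block (-1.55). Its rise in 3D-2D over 3D (1.81 ± 0.68) was lost without 3D replicate 1 (1.55) or either 3D-2D replicate (1.67 and 1.94). In 3D-2D-3D it was called 1.61 ± 0.64 higher, but 0.85 and not called without replicate 3 of that group, and the call ended as well without 3D-2D-2D replicate 1 (1.51), 2 (1.54) or 3 (1.79).

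Tnf, which encodes the best known inflammatory member of its family, was not called in any comparison. Its levels were 5.48, 3.48 and 0.208 CPM in 3D against 1.41, 1.18 and 2.28 CPM in 2D, so library 3 lay on the other side of the 2D libraries. In 3D-2D-3D they were 4.57, 4.58 and 0.0967 CPM against 0.364 to 0.735 CPM in 3D-2D-2D, and without 3D-2D-3D replicate 3 the difference of 2.96 was called.

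The cytokines Il6, Il11 and Lif signal through the shared receptor subunit encoded by Il6st. None of the 3 was called between 3D and 2D. Il6 had 25.6, 24.0 and 6.597 CPM in 2D and 6.70, 6.83 and 1.60 CPM in 3D, a difference of -1.89 ± 0.85 (edgeR adjusted p = 0.0633). With the replicate block it was -1.92 ± 0.13 and called (edgeR adjusted p = 0.00528), and it was called without 2D replicate 3 (-2.32). Il11 had 3.76 and 9.83 CPM in 3D-2D against 0.406, 0.477 and 0.520 CPM in 3D, a rise of 3.82 ± 0.90 (edgeR adjusted p = 0.00112) that was 2.98 without 3D-2D replicate 2. It was called higher in 3D-2D-3D (7.50, 6.72 and 4.96 CPM) than in 3D-2D-2D (1.35, 0.857 and 1.18 CPM), by 2.47 ± 0.83 (edgeR adjusted p = 0.0207). The groups did not overlap, yet the call was lost without 3D-2D-2D replicate 1 (2.62), 2 (2.33) or 3 (2.50). The 3D-2D vs 2D difference of Il11, 2.06 ± 0.82, was called only without 2D replicate 3 (3.20).

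Lif, which acts on cardiomyocytes and stem cells, fell at 5 days in 3D, where it had 7.23, 8.51 and 7.06 CPM against 65.0, 36.0 and 33.9 CPM in 2D. The difference was -2.56 ± 0.51 (edgeR adjusted p = 0.000468), and no library of one group reached the other. At no stated time the difference was -0.66 ± 0.45, at 42.3, 54.3 and 13.4 CPM in 3D and 69.8, 64.3 and 40.1 CPM in 2D. In 3D-2D it was 1.23 ± 0.49 above 3D (edgeR adjusted p = 0.039), a call that ended without 3D replicate 1 (1.33), 3D replicate 3 (0.83) or 3D-2D replicate 2 (0.85). In 3D-2D-3D it had 229.6, 236 and 63.1 CPM against 79.4, 90.9 and 82.9 CPM in 3D-2D-2D, and only without 3D-2D-3D replicate 3 was the difference called (1.47).

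Of 17 cytokine receptors, all tested, 8 were higher and 3 lower in 3D than in 2D, 1 rose and 10 fell in 3D-2D compared with 3D, and 7 fell in 3D-2D-3D compared with 3D-2D-2D with none higher. At 5 days 4 were higher and 3 lower, and in 3D-2D compared with 2D 1 was higher and 5 lower. The shares of all genes called were 54%, 56.5%, 40.4%, 32.4% and 14.4% in the same order. Il6st fell from 1262 CPM in 3D-2D-2D to 289 CPM in 3D-2D-3D (-2.12 ± 0.24, edgeR adjusted p = 2.9e-07) and was 232 CPM in 3D-2D against 787 CPM in 2D. Csf2rb, a receptor chain of myeloid cells, was 3.50 ± 0.64 higher in 3D and 6.02 ± 0.73 higher at 5 days. Of 23 macrophage markers 8 were higher and 1 lower in 3D than in 2D, 16 fell and 1 rose from 3D to 3D-2D, and 4 were higher and 1 lower at 5 days, with sums of 3774 to 14263 CPM in 3D-5days and 882 to 3631 CPM in 2D-5days. Their part in the receptor differences was not tested. Il1rap, the accessory chain of the IL-1 receptor, was lower in 3D in each case, at -1.86 ± 0.33, -1.70 ± 0.32 and -1.78 ± 0.33 at no stated time, in 3D-2D-3D and at 5 days. Among 11 genes of signalling below Il6st, 5 were higher and 1 lower in 3D than in 2D, 7 fell in 3D-2D compared with 3D with none higher, 4 were higher and 1 lower in 3D-2D-3D, and 5 were higher and 1 lower at 5 days (54%, 56.5%, 40.4% and 32.4% of all genes were called). Cebpd, a transcription factor, was the gene that was lower in all 3 comparisons of a 3D with a 2D culture (-1.80 ± 0.39, -2.61 ± 0.40 and -2.18 ± 0.40). Socs1, a feedback inhibitor, was higher in all 3 (1.13 ± 0.23, 0.71 ± 0.23 and 0.93 ± 0.24).

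In the IL-1 family, the antagonist Il1rn and the agonist Il1a were higher in 3D, and Il1b had few reads in most libraries. Il1rn (chromosome 2, 24336860 to 24351491), whose product blocks the IL-1 receptor, had 70.5, 52.0 and 2.81 CPM in 3D and 2.49, 3.07 and 4.56 CPM in 2D. The first 2 libraries of 3D were far above 2D, and 3D library 3 lay within the range of 2D. The difference of 3.58 ± 0.79 was called (edgeR adjusted p = 0.000671). It was 4.43 within libraries 1 and 2, -0.68 within library 3, 2.98 without 3D replicate 1, and 2.96 and not called with the replicate block. At 5 days it had 53.7, 25.1 and 30.7 CPM in 3D and 2.48, 0.257 and 1.02 CPM in 2D, and every 3D library was higher (4.84 ± 0.94, edgeR adjusted p = 0.000383; 5.78 without 2D-5days replicate 1). The sum of the macrophage markers was likewise high in 3D libraries 1 and 2 (10597 and 7384 CPM) and low in library 3 (277 CPM), and its part in the Il1rn difference was not tested. Il1rn fell by 4.44 ± 0.99 on the log2 scale from 3D to 3D-2D (-3.84 without 3D replicate 1). In 3D-2D-3D it had 4.16, 4.76 and 4.26 CPM against 0.674, 0.367 and 0.546 CPM in 3D-2D-2D (2.99 ± 1.06), a difference that was lost without 3D-2D-3D replicate 2 (2.95) or 3D-2D-2D replicate 1 (3.21), 2 (2.83) or 3 (3.00).

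Il1a had 1.37, 1.34 and 0.277 CPM in 3D and at most 0.107 CPM in 2D (3.59 ± 0.91, edgeR adjusted p = 0.00212; 4.34 without 2D replicate 3). Scaled sums gave a ratio of 9.42 for 3D-2D-3D over 3D-2D-2D (95% counting interval 3.10 to 46.7) and of 12.1 for 3D over 2D at 5 days (3.08 to 105). The lower groups held only 3 and 2 reads. The first call was lost without 3D-2D-2D replicate 1 (3.06 on the log2 scale) or 3 (2.58) and was 4.21 without replicate 2, and the 5-day call without 2D-5days replicate 2 (3.03) or 3D-5days replicate 1 (2.87). The fall from 3D to 3D-2D (-3.01 ± 0.94) was lost without either 3D-2D replicate (-3.18 and -2.88). Il1b had no read in 3D-2D-2D and 51, 48 and 1 reads in the libraries of 3D-2D-3D, so it was at least 12.6-fold higher there, against a floor of 3 reads over the group, with nearly all reads in libraries 1 and 2. The fitted log2 difference of 7.35 was 6.76 without 3D-2D-3D replicate 2. Il33, an alarmin stored in the nucleus, was at 0.835 and 0.702 CPM in 3D-2D, below all libraries of 2D (1.75 to 6.49 CPM) and 3D (1.77 to 8.73 CPM). It was -3.02 ± 0.75 from 3D (edgeR adjusted p = 0.00183) and -2.49 ± 0.75 from 2D (edgeR adjusted p = 0.0302), the latter lost without 2D replicate 1 (-2.11), 2D replicate 2 (-2.35) or either 3D-2D replicate (-2.64 and -2.38).

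Several CC chemokines were higher in 3D libraries 1 and 2 and low in 3D library 3, and the macrophage markers had the same split. Ccl3, Ccl4 and Ccl9 attract monocytes and other leukocytes. Ccl9 (chromosome 11, 83572917 to 83578636) had 206, 151 and 3.99 CPM in 3D and 24.9, 23.7 and 22.5 CPM in 2D, called at 2.35 ± 0.75 (edgeR adjusted p = 0.0115). Library 3 thus lay below all 2D libraries while the others lay above them. Within libraries 1 and 2 the difference was 2.85 and within library 3 -2.47, each called in its own direction, and without 3D replicate 1 it was 1.71 and not called. Ccl3 had 40.0, 23.6 and 0.347 CPM in 3D against 2.68 to 4.60 CPM in 2D (2.62 ± 0.99, edgeR adjusted p = 0.0307). It was 3.48 in libraries 1 and 2 and -3.68, not called, in library 3. That call was lost without 2D replicate 1 (2.52), 2 (2.47) or 3 (2.92) or 3D replicate 1 (1.78) or 2 (2.54). With the replicate block Ccl3 was 1.83 and Ccl9 1.497, neither called. Ccl4, not called at 1.51 ± 0.91, was called without 3D replicate 3 (2.08), within libraries 1 and 2 (2.40) and in the other direction within library 3 (-4.87). The Ccl3 and Ccl4 gene models overlap in RefSeq, so reads shared by them cannot be told apart here. The same holds for Cxcl16 with Zmynd15 and Il11 with Tmem190, since the strand setting of the counting is not given.

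The sum over the 23 macrophage markers was 10597 and 7384 CPM in 3D libraries 1 and 2 and 277 CPM in library 3, against 1477 to 1911 CPM in 2D, 849 to 1107 CPM in 3D-2D, 300 to 319 CPM in 3D-2D-3D and 566 to 573 CPM in 3D-2D-2D. Of these 23 markers 8 were called higher and 1 lower in 3D than in 2D, beside 54% of all genes. From 3D to 3D-2D 16 fell and 1 rose, beside 56.5% of all genes. The part of these cells in the chemokine differences was not tested. In bulk RNA, a change in the number of cells of a type and a change in RNA per cell cannot be told apart. In 3D-2D, Ccl9 was at 13.4 and 8.02 CPM (-3.49 ± 0.93 from 3D, edgeR adjusted p = 0.00323; lost at -3.17 without 3D-2D replicate 2, and -2.86 without 3D replicate 1). The differences of Ccl3 (-2.63 ± 1.15), Ccl4 (-1.95 ± 1.07), Ccl5 (-1.67 ± 0.80) and Ccl7 (-2.04 ± 0.95) did not pass, and each was called without 3D replicate 3, at -3.20, -2.53, -2.01 and -2.60, as was Ccl2 at -1.67.

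**Figure D4:**
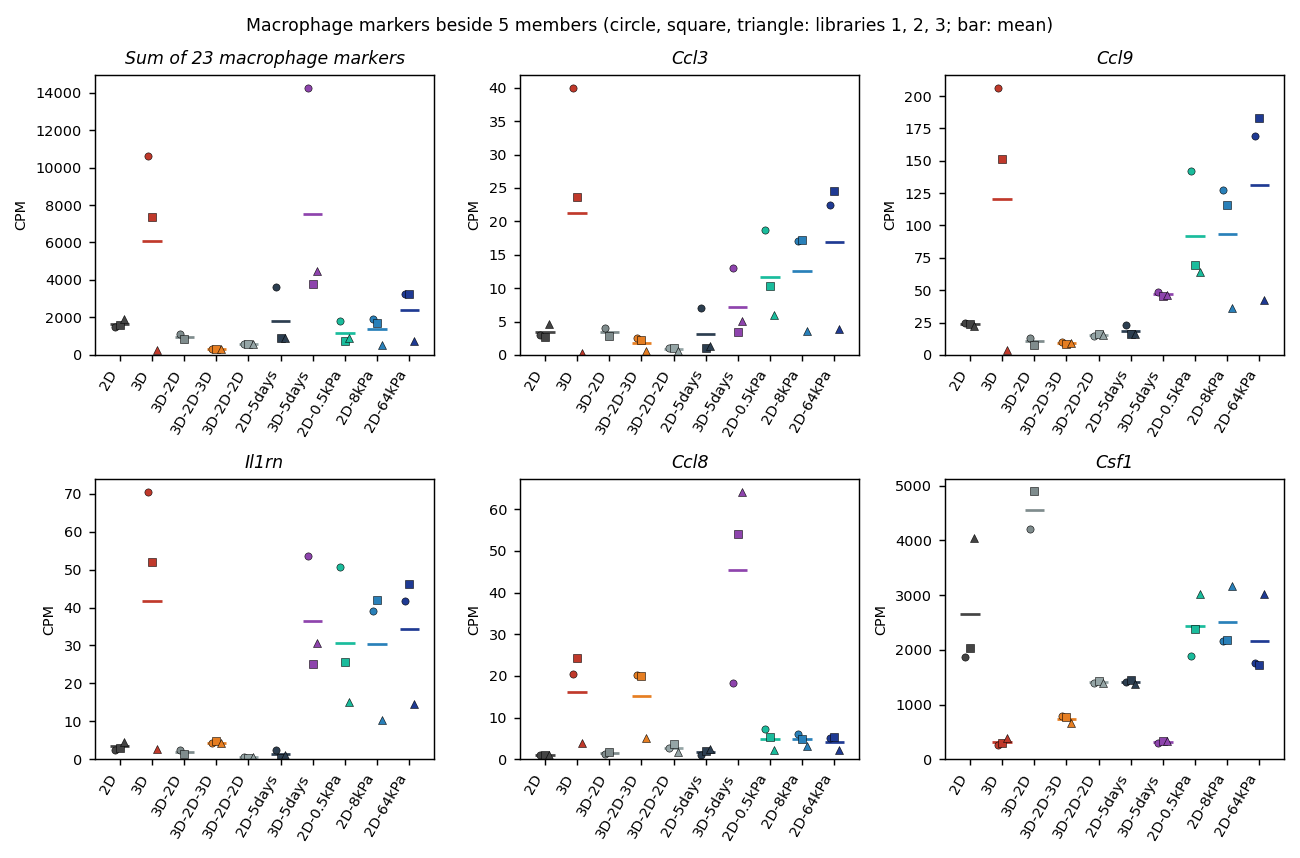
CPM of the summed 23 macrophage markers and of Ccl3, Ccl9, Il1rn, Ccl8 and Csf1 in every library, on linear axes; circles, squares and triangles are libraries 1, 2 and 3 and bars are group means. The triangle of 3D is near the bottom for the markers (277 CPM), Ccl3 (0.347 CPM) and Ccl9 (3.99 CPM), and for Csf1 all 3 libraries of 3D are low.

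Ccl8 (chromosome 11, 82115185 to 82116799), a monocyte attractant, was higher in each 3D group whatever the library. It had 20.4, 24.2 and 3.99 CPM in 3D and 1.08, 1.02 and 1.07 CPM in 2D (3.92 ± 0.68, edgeR adjusted p = 5.45e-05). Within library 3 alone the difference was 1.91 and not called. It had 1.17 and 1.71 CPM in 3D-2D, -3.49 ± 0.76 from 3D. It rose again in 3D-2D-3D, with 20.3, 20.1 and 5.03 CPM against 2.61, 3.55 and 1.82 CPM in 3D-2D-2D (2.52 ± 0.63, edgeR adjusted p = 0.00296). The macrophage sums were 300 to 319 CPM in 3D-2D-3D and 566 to 573 CPM in 3D-2D-2D. At 5 days Ccl8 had 18.3, 54.0 and 64.1 CPM in 3D and 1.06, 1.93 and 2.49 CPM in 2D (4.63 ± 0.69, edgeR adjusted p = 2.21e-05), with macrophage sums of 3774 to 14263 CPM and 882 to 3631 CPM. The part of macrophages in the Ccl8 differences was not tested.

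Ccl5, an attractant of T cells and monocytes, had 4.84, 5.40 and 1.48 CPM in 3D-2D-3D and 0.122 to 0.337 CPM in 3D-2D-2D (3.89 ± 0.89, edgeR adjusted p = 0.00126). In 3D vs 2D it was 1.66 ± 0.70 and just not called (edgeR adjusted p = 0.051), and called at 4.71 without 2D replicate 3 and at 1.96 without 3D replicate 3. Cxcl9, an attractant of T cells that had at most 1.09 CPM in any library, was called higher in 3D without 2D replicate 3 (2.42). Ccl11, the eosinophil attractant, had 3, 23 and 14 reads in 3D-5days and 1 read in all of 2D-5days, a ratio of 32.3 (95% counting interval 5.48 to 1309). The call ended without 2D-5days replicate 1 (4.21 on the log2 scale), 2 (4.27) or 3 (7.33) or 3D-5days replicate 2 (4.24) or 3 (4.63). Ccl2 and Ccl7, the monocyte attractants of injured tissue, were not called in any comparison of the main fit. Ccl2 had 157, 158 and 14.8 CPM in 3D-2D-3D and 31.1 to 44.1 CPM in 3D-2D-2D, and was called there without 3D-2D-3D replicate 3 (2.12). It was called lower at 5 days with the replicate block (-1.14 ± 0.22, edgeR adjusted p = 0.00553), and so was Ccl7 (-0.63 ± 0.18, edgeR adjusted p = 0.0158).

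Of the 8 CXC and CX3C chemokines, all tested, 4 rose and 1 fell in 3D-2D-3D compared with 3D-2D-2D, beside 19.8% and 20.6% of all genes. Cxcl16 (chromosome 11, 70454389 to 70459984) and Cx3cl1 (chromosome 8, 94772180 to 94782427) encode the chemokines made as membrane proteins. Cxcl16 had 129, 124 and 100.5 CPM in 3D-2D-3D and 27.8, 27.3 and 28.3 CPM in 3D-2D-2D (2.09 ± 0.36, edgeR adjusted p = 7.64e-05). Cx3cl1 had 380, 371 and 753 CPM against 105, 106 and 110 CPM (2.23 ± 0.48, edgeR adjusted p = 0.000763). For both genes all libraries were separate. Cxcl2 had 11.9, 11.7 and 0.0322 CPM against 3 reads in all of 3D-2D-2D, a ratio of 76.4 (95% counting interval 26.0 to 371), and library 3 of 3D-2D-3D, with 1 read, did not share the rise. On the log2 scale the difference was 6.82 without that library, 7.02 without 3D-2D-2D replicate 1 and 5.65 without 3D-2D-2D replicate 3. Cxcl1 had 36.4, 38.9 and 0.484 CPM in 3D-2D-3D against 9.18, 12.9 and 9.09 CPM in 3D-2D-2D. Library 3 of 3D-2D-3D thus lay below all 3D-2D-2D libraries. Cxcl1 was not called in the main fit, and was called higher without 3D-2D-3D replicate 3 (1.88). Cxcl14 had 24.5, 24.7 and 13.5 CPM against 5.73 to 6.86 CPM (1.72 ± 0.55, edgeR adjusted p = 0.0154; lost at 1.66 without 3D-2D-2D replicate 3). Cxcl12, which retains stem cells and lymphocytes, fell by 1.37 ± 0.29 on the log2 scale (edgeR adjusted p = 0.000619), at 341, 352 and 311 CPM against 843, 876 and 874 CPM. Cxcr4, its receptor, was 2.83 ± 0.65 higher in 3D-2D-3D, and Ackr3, its scavenging receptor, fell by 2.24 ± 0.60 on the log2 scale. They were the members of a list of 13 chemokine receptors, 9 tested, that changed in this comparison.

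In 3D vs 2D, Cxcl14 rose (53.3, 41.1 and 7.53 CPM in 3D, 7.73, 8.83 and 11.8 CPM in 2D), by 1.83 ± 0.53 (edgeR adjusted p = 0.00616). Library 3 was again below the 2D libraries, at -0.63 within that number, and the call was lost with the replicate block (1.52). Cxcl5, a neutrophil attractant, had 2.39, 2.53 and 0.173 CPM in 3D and 21.2, 17.4 and 4.78 CPM in 2D (-3.13 ± 1.26, edgeR adjusted p = 0.0413). Its groups did not overlap, but the call was lost without 2D replicate 1 (-2.73) or 2 (-2.95) or without 3D replicate 1 (-3.49), 2 (-3.59) or 3 (-2.54). Cx3cl1 was 1.05 ± 0.46 higher and not called (edgeR adjusted p = 0.0604), at 64.1, 74.5 and 251 CPM against 34.2, 32.3 and 120 CPM. It was called with the replicate block (1.07 ± 0.10, edgeR adjusted p = 0.00692) and without 2D replicate 3 (1.97), 3D replicate 1 (1.39) or 3D replicate 2 (1.33). Without 2D replicate 3 it was also called higher in 3D-2D than in 2D (1.38). From 3D to 3D-2D, Cxcl14 fell by 1.74 ± 0.61 and Cxcl16 by 0.93 ± 0.39 on the log2 scale. The first was lost without 3D replicate 1 (-1.26) or either 3D-2D replicate (-1.83 and -1.65), and the second without any single library of the comparison (-1.08 to -0.80). Of the 9 tested receptors of the chemokine receptor list, 3 were higher in 3D than in 2D with none lower. From 3D to 3D-2D 6 fell with none higher, and at 5 days 3 were higher in 3D with none lower. The shares of all genes called were 54%, 56.5% and 32.4%. Cx3cr1, the receptor of Cx3cl1, was counted with the macrophage markers. It had 24.4, 22.9 and 11.7 CPM in 2D and 0.812, 0.859 and 1.08 CPM in 3D. At 5 days it had 21.6, 4.50 and 3.95 CPM in 2D and 1.89, 1.42 and 1.19 CPM in 3D. Ccr1, the receptor of Ccl3 and Ccl9, was 2.50 ± 0.87 higher in 3D (44.5 against 8.00 CPM) and -3.71 ± 1.09 in 3D-2D against 3D. The macrophage markers had sums of 10597, 7384 and 277 CPM in the 3D libraries, 1477 to 1911 CPM in 2D and 849 to 1107 CPM in 3D-2D, with 8 of 23 called higher and 1 lower in 3D than in 2D and 1 higher and 16 lower in 3D-2D than in 3D. Their part in the receptor differences was not tested.

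The acute-phase genes Saa3 and Lcn2, whose products bind lipids and bacterial siderophores, were called in no comparison of the main fit. Saa3 had 13.4, 16.8 and 0.971 CPM in 3D and 0.710 to 1.25 CPM in 2D (3.40 ± 1.54, edgeR adjusted p = 0.0664), and was called without 3D replicate 3 (3.94). Without that library it was also called lower in 3D-2D than in 3D (-4.52). At 5 days it had 17.5, 57.8 and 60.2 CPM in 3D and 2.44 to 4.61 CPM in 2D. The Saa3 groups did not overlap, and the difference of 3.65 ± 1.44 (edgeR adjusted p = 0.0576) was called with the replicate block (3.56 ± 0.50, edgeR adjusted p = 0.00397). Lcn2 had 9.14, 8.49 and 1.93 CPM in 3D-2D-3D and 0.842, 1.35 and 0.909 CPM in 3D-2D-2D. These groups did not overlap, and the difference of 2.68 ± 1.74 was not called (edgeR adjusted p = 0.235). It was called when only the 2 groups were fitted (2.69 ± 0.74, edgeR adjusted p = 0.0222) and when the replicate block was added (2.56 ± 0.41, edgeR adjusted p = 0.00288).

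The list of 20 NF-kB subunits, inhibitors and feedback genes, all tested, had 1 higher and 4 lower in 3D than in 2D. It had 4 higher and 2 lower in 3D-2D than in 3D, 3 higher and 1 lower in 3D-2D-3D than in 3D-2D-2D, and 1 higher and 3 lower at 5 days. Of all genes, 54%, 56.5%, 40.4% and 32.4% were called in these comparisons. Its medians were -0.10, 0.19, 0.18 and -0.17. Nfkb1 and Nfkb2, which encode precursors of NF-kB subunits, were lower in 3D at no stated time (-0.47 ± 0.14 and -0.75 ± 0.17) and at 5 days (-0.57 ± 0.14 and -0.58 ± 0.18). The gene called higher in 3D was Nfkbiz at no stated time (1.39 ± 0.35) and Bcl3 at 5 days (0.84 ± 0.31). The inhibitor gene Tnfaip3 was 1.65 ± 0.63 and Nfkbie 0.92 ± 0.30 higher in 3D-2D-3D than in 3D-2D-2D, and Vcam1, an adhesion molecule for leukocytes, was 1.66 ± 0.23 higher. At 5 days Vcam1 was instead lower in 3D than in 2D (-0.61 ± 0.22).

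The counts of calls were also taken within libraries of the same number. Within libraries 1 and 2 of 3D vs 2D, 11 members were higher and 4 lower, beside 23.9% and 26.7% of all genes. Within library 3, where each group is 1 library assumed to vary like the other groups, 1 member was higher and 9 were lower, beside 17.2% and 17.3% of all genes. With the replicate block, 10 of 31 tested members were called, beside 39.7% of all genes. In 3D-2D vs 3D, libraries 1 and 2 gave 19 calls among 35 members (56% of all genes). In 3D-2D-3D vs 3D-2D-2D, libraries 1 and 2 gave 16 calls (31.5% of all genes) and library 3 gave 3 (10.9% of all genes), of Il34, Ptgs1 and Ptgs2. At 5 days, where libraries 2 and 3 were the most alike, these gave 6 calls (27.3% of all genes). With the replicate block at 5 days 12 members were higher and 8 lower of 26 tested, beside 21.9% and 20.3% of all genes. The genes called there but not in the main fit included Ccl9 (1.38 ± 0.13), Il33 (1.20 ± 0.19), Cxcl14 (1.30 ± 0.15), Cxcl1 (1.21 ± 0.22) and Cx3cl1 (-0.90 ± 0.10).

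The difference between 3D and 2D itself differed between the 5-day cultures and those with no stated time for 2 members, both more negative at 5 days (25.5% of all genes differed, 12.3% more positive and 13.2% more negative). For Lif the change in the difference was -1.90 ± 0.67 (edgeR adjusted p = 0.0412) and for Cx3cl1 -1.99 ± 0.66 (edgeR adjusted p = 0.0305). At 5 days Cx3cl1 had 48.2, 49.97 and 54.1 CPM in 3D and 105, 94.0 and 92.2 CPM in 2D, whereas at no stated time the 3D library was the higher under each replicate number. For Cx3cl1 the call ended without 2D replicate 1 (-1.70), 2D replicate 2 (-1.68), 3D replicate 3 (-1.06), 3D-5days replicate 1 (-1.95) or 3D-5days replicate 2 (-1.96), and it was -2.90 without 2D replicate 3. For Lif it ended without 2D replicate 2 (-1.98), 2D replicate 3 (-1.69), 3D replicate 1 (-1.76), 3D replicate 2 (-1.499), 2D-5days replicate 1 (-1.53) or 3D-5days replicate 1 (-1.86), 2 (-1.96) or 3 (-1.85). With the replicate block, Cxcl5 (3.61 ± 0.52, edgeR adjusted p = 0.00533), Il6 (1.58 ± 0.28, edgeR adjusted p = 0.00988), Csf1 (0.83 ± 0.21, edgeR adjusted p = 0.0311) and Tnfsf15 (4.82 ± 1.25, edgeR adjusted p = 0.0337) were called as well, all more positive at 5 days, so that 4 members were more positive and 2 more negative. Other calls appeared in the main fit without 1 library: Csf1 without 2D replicate 1 (1.11), 2D replicate 2 (1.07) or 3D replicate 3 (1.10), Ccl5 without 2D replicate 3 (-4.37), Ptgis without 3D replicate 3 (0.92) and Ptgs2 without 2D-5days replicate 1 (2.96).

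On the substrates of defined stiffness, Cxcl1 and Cxcl5, attractants of neutrophils, and Ccl2 and Ccl7, attractants of monocytes, reached their highest levels of the series. The 9 substrate libraries lay above all 3 2D libraries for 12 of the 35 tested members, beside 7.32% of all genes. The genes were Il6, Lif, Il1a, Il1rn, Ccl2, Ccl5, Ccl7, Ccl8, Ccl9, Cxcl1, Cxcl5 and Ptgs1. The reverse held for 0 members, beside 8.84% of all genes. Cxcl1 (chromosome 5, 90891245 to 90893121) had 85.4 to 497 CPM on the substrates (median 319) and 3.57 to 5.07 CPM in 2D. Ccl2 (chromosome 11, 82035577 to 82037452) had 211 to 791 CPM (median 583) on the substrates and 43.0 to 72.0 CPM in 2D. Il6 (chromosome 5, 30013114 to 30019975) had 25.9 to 263 CPM (median 146) against 6.597 to 25.6 CPM, so its lowest substrate library was just above its highest 2D library. Cxcl5 had 49.1 to 1447 CPM (median 981) against 4.78 to 21.2 CPM. The substrate groups and 2D differ in the material under the cells and in the Xist and Y-linked reads described above, and these cannot be told apart, so no test was made.

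On each substrate, library 3 stood apart from libraries 1 and 2. It also differed in how reads were assigned. Reads with no feature were 8.23% to 9.72% in library 3 and 4.84% to 5.52% in libraries 1 and 2. Reads not unique in place were 17.8% to 20.8% in library 3 and 21.3% to 28.4% in libraries 1 and 2. The part of this difference in the levels was not tested. For 11 members both libraries 1 and 2 were over 2-fold above library 3 on all 3 substrates, beside 1.82% of all genes: Il6, Ccl4, Ccl7, Ccl11, Cxcl1, Cxcl5, Cxcl14, Cxcl16, Lcn2, Saa3 and Ptges. For 0 members were they over 2-fold below it on all 3, beside 1.13% of all genes. Lcn2 (chromosome 2, 32384637 to 32387739) had 213, 427 and 0.316 CPM on 0.5 kPa, 436, 287 and 6.01 CPM on 8 kPa and 149, 81.4 and 1.76 CPM on 64 kPa. In 2D the gene had 0.867 to 1.93 CPM, so library 3 lay below that range on 0.5 kPa, above it on 8 kPa and within it on 64 kPa. Saa3 had 29.2, 44.1 and 0.422 CPM on 0.5 kPa, 67.6, 33.4 and 1.65 CPM on 8 kPa, and 27.0, 20.01 and 0.979 CPM on 64 kPa. Cxcl5 had 1099, 1447 and 49.1 CPM on 0.5 kPa, with library 3 low but still above 2D. Csf1 ran the other way at a smaller size, with 1885, 2380 and 3023 CPM on 0.5 kPa. The macrophage sums of the substrate libraries were 538 to 3254 CPM. Library 3 had 907, 538 and 762 CPM on 0.5, 8 and 64 kPa, beside 759 CPM in library 2 on 0.5 kPa. The sums over 8 neutrophil markers were 7.47, 8.37 and 1.27 CPM on 0.5 kPa and 7.63, 7.32 and 1.07 CPM on 8 kPa. On 64 kPa they were 6.69, 5.69 and 0.783 CPM. Of these markers, S100a9 and Retnlg had no reads on any substrate. The part of either cell type in the levels was not tested.

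**Figure D5:**
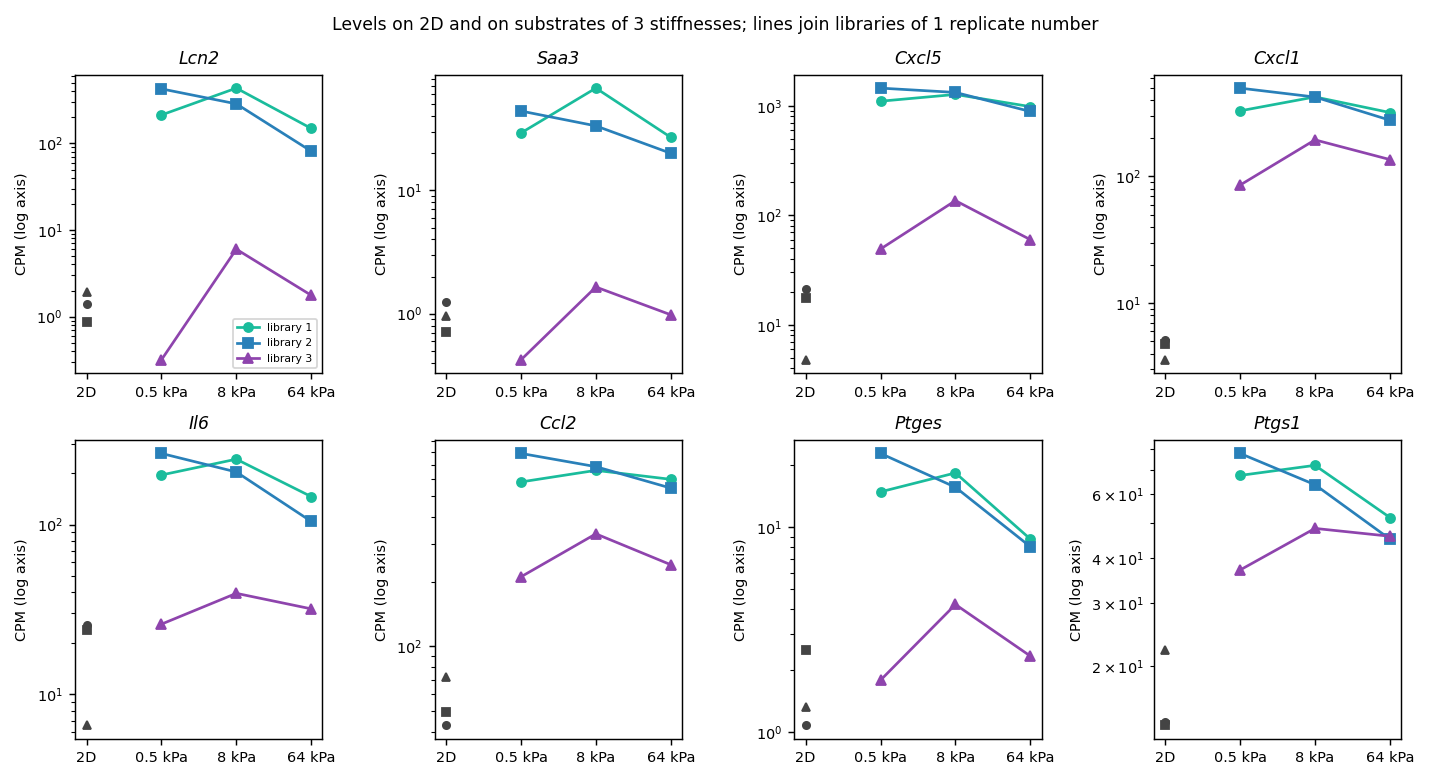
CPM of Lcn2, Saa3, Cxcl5, Cxcl1, Il6, Ccl2, Ptges and Ptgs1 in the 2D libraries (dark symbols) and on substrates of 0.5, 8 and 64 kPa, on log axes; lines join libraries with the same replicate number. Library 3 lies below libraries 1 and 2 in most panels, and in all 8 panels each line is lower at 64 kPa than at 8 kPa.

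Between stiffnesses, no member was called in any of the 3 comparisons of the main edgeR fit, and 0% of all genes were. At an unadjusted p under 0.05 there were 82 genes for 8 against 0.5 kPa, 175 for 64 against 0.5 kPa and 241 for 64 against 8 kPa, and DESeq2 called 0 members as well. The medians of the members were 0.02, -0.32 and -0.28. With the replicate number as a block, 12 of 33 tested members were called lower and 2 higher on 64 kPa than on 8 kPa, beside 1.7% and 3.12% of all genes. Lcn2 was lower, at -1.67 ± 0.06 on the log2 scale (edgeR adjusted p = 4.28e-08), and each of the 3 pairs showed it. Cxcl1 was lower at -0.51 ± 0.05 (edgeR adjusted p = 7.59e-05), Ptges at -0.98 ± 0.12 (edgeR adjusted p = 0.000629) and Saa3 at -1.03 ± 0.12 (edgeR adjusted p = 0.000894). The other falls were Cxcl2 (-1.02 ± 0.22), Il11 (-1.87 ± 0.38), Ccl5 (-0.74 ± 0.13), Il6 (-0.72 ± 0.11), Ptgs1 (-0.36 ± 0.08), Ccl2 (-0.31 ± 0.06), Csf1 (-0.23 ± 0.05) and Ptgis (-0.19 ± 0.04). Of these falls, that of Il11 was not shared by library 3, which had 0.905 CPM on 8 kPa and 1.18 CPM on 64 kPa. Ccl9 (0.47 ± 0.07) and Ccl3 (0.42 ± 0.11) were higher on 64 kPa. The macrophage sums were higher on 64 kPa in each pair, at 3254, 3236 and 762 CPM against 1915, 1724 and 538 CPM, and their part in these 2 rises was not tested. With the same block no member was called between 64 and 0.5 kPa or between 8 and 0.5 kPa, where 0.0158% of all genes were called. Ptgs2, at 148 to 384 CPM on 0.5 and 8 kPa and 103, 91.3 and 364 CPM on 64 kPa, was not called with the block (-1.03 ± 0.48).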

How the data were processed

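The authors' deposited table held whole-number counts of reads per gene for 29 RNA libraries. TopHat, Bowtie and HTSeq and the build mm10 are named per the submitters' processing notes. The annotation, the tools' versions and any use of strand in counting were not given in the sources used here. Summary lines of reads without a gene (4.84% to 10.0% of the reads with no feature, 0.881% to 1.06% ambiguous and 14.0% to 28.4% not unique in place) were left out of library sizes and tests. Counts were scaled by TMM factors (0.868 to 1.10) and tested in edgeR 4.0.16 (R 4.3.3, quasi-likelihood, robust) in 1 fit over the 10 groups, after edgeR's filter on low counts, with Benjamini-Hochberg adjustment over 14036 genes. Standard errors are the log2 fold change divided by the square root of F. CPM values are counts over scaled gene-count totals, and their precision is limited by totals of 8509987 to 29909400 reads. The script was tested on simulated data.

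Same-numbered libraries deviated together in 3D vs 2D (r = 0.141, 0.230 and 0.232), at 5 days (0.572, 0.288 and 0.337) and between substrates (0.191 to 0.753), which was taken as pairing because every value was over 0.1. The best correlation with another number was higher for some libraries (0.165 for library 1 in 3D vs 2D, 0.317 and 0.346 for libraries 2 and 3 at 5 days, 0.502 and 0.530 for library 2 of 8 and of 64 kPa against 0.5 kPa), and the origin of the pairs is not given. All 37 members were described. Of each pathway list, the genes named are called genes with the largest fold change or, where none was called, the most abundant. Members, lists and rules were chosen with earlier results of these data known. Alternatives were other scalings (edgeR's RLE size factors and library totals alone), filters and the test of DESeq2 1.42.0. Others were the replicate block, fits of the compared groups alone and leaving out each library. Fits within libraries of the same numbers were chosen after seeing the data. The 2 ATAC-seq samples were not analysed here.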

Additional observations from a re-analysis of the deposited data

Results flagged for a closer look

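The 5-day contrast of 3D with 2D departed from the contrast at no stated time for 2 genes by the test of the difference itself (edgeR, adjusted over all genes). For Lif the change was -1.90 ± 0.67 on the log2 scale (edgeR adjusted p = 0.0412), and for Cx3cl1 -1.99 ± 0.66 (edgeR adjusted p = 0.0305). Neither was called when only the groups compared were fitted (-1.90 for Lif and -2.01 for Cx3cl1), and both were with the replicate block (-1.66 and -1.998), as were 4 further members in the other direction.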

How the results depend on the processing

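Of 60 called results of single members, 22 kept direction and call under every alternative run, and 4 reversed under at least 1. Counts of called members that moved by over 1.5 times were as follows. Fitting only the groups compared gave 8 of 31 tested in 3D vs 2D (5652 of 13376 genes), 3 of 30 in 3D-2D vs 2D (523 of 13349), 14 of 26 at 5 days (2991 of 12484) and 0 of 31 for the change between times (2156 of 13275). With the replicate block added there were 26 of 32 in 3D-2D vs 3D (9957 of 13921 genes), 18 of 30 in 3D-2D vs 2D (6264 of 13349), 20 of 26 at 5 days (5265 of 12484), 14 of 33 in 64 vs 8 kPa (608 of 12610) and 6 of 31 for the change between times (3070 of 13275). The numbers of 3D-2D and 3D-2D-3D libraries did not pair with those of their comparison groups (correlations of -0.0768 to 0.131), so the block there rests on a number alone. For the change between times DESeq2 gave 4 of 35 (3857 of 14121 genes) and no filter 1 of 37 (3131 of 19837). Library 3 alone gave 3 of 35 in 3D-2D-3D vs 3D-2D-2D (1562 of 14331). Leaving out each library gave 10 to 15 in 3D vs 2D, 9 to 19 in 3D-2D vs 3D, 0 to 8 in 3D-2D vs 2D, 12 to 21 in 3D-2D-3D vs 3D-2D-2D, 6 to 7 at 5 days and 0 to 3 for the change between times. Directions reversed in 3D vs 2D within library 3 for Ccl3 (-3.68), Ccl4 (-4.87), Ccl9 (-2.47), Cxcl14 (-0.63) and Il1rn (-0.68), and with the replicate block for Cx3cl1 in 3D-2D vs 3D (0.30) and Ccl5 (3.04) and Tslp (1.17) in 3D-2D vs 2D. The cause was not tested. Depth limits Csf2, Csf3, Il1a, Il1b, Ccl11, Ccl20 and Cxcl9, which had few reads in most groups.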
